A study of Mus musculus with 12 samples.

Results

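The genes described here are 37 markers and effectors of macrophages and of efferocytosis, the uptake of dying cells by phagocytes. They are the genes on a list of 38 names whose row in the count table had at least 10 counts in at least 3 of the 12 libraries, out of 48709 rows of which 17397 passed the same rule. The other name is not analysed here. RNA came from pancreatic islets of female mice labelled NSG RIP-DTR Htz. Every group shares this background: NSG mice lack mature lymphocytes and NK cells but keep myeloid cells, and the RIP-DTR transgene uses the rat insulin promoter to express a receptor for diphtheria toxin, so that the toxin acts on beta cells. The 4 groups held 3 libraries each: CTRL, with the treatment given as none, and 3 groups treated with diphtheria toxin (DT) and labelled 1, 3 and 5 DPA, read here as days post-ablation. The comparison asks how islets respond to partial loss of beta cells. The labels give no age, dose or number of animals per library, and nothing says that the libraries came from separate animals, so the p-values measure the spread between these libraries, which may be technical.

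Islets contain resident macrophages in all conditions, which depend on the receptor Csf1r, survey the tissue and clear cell debris. Efferocytosis runs in steps: soluble bridging proteins or receptors recognise phosphatidylserine on the dying cell, receptor tyrosine kinases and scavenger receptors engulf it, and the phagocyte then breaks down and exports the lipid it has taken up. Monocytes that enter a tissue from the blood carry Ccr2 and can become macrophages there. In bulk RNA of whole islets, fewer macrophages and less RNA of a gene per macrophage cannot be told apart.

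Axl and Trem2, both higher than CTRL at 5 DPA in the results, are shown with the 250 bases before their RefSeq start site (GRCm38.p6), because these stretches lie outside the GENCODE M21 gene and hold a short motif of a factor that is active in macrophages. The motifs searched, on both strands, were GAGGAAG of PU.1 (the product of the member Spi1), TGANTCA of AP-1 and TCACGTG of the MITF and TFE factors. The window of Axl is chr7:25788734-25788983 on the minus strand and that of Trem2 is chr17:48346151-48346400 on the plus strand. Capitals mark the matches, which are CTTCCTC, the reverse complement of the PU.1 motif, in both genes and TGAATCA, a form of the AP-1 motif, in Trem2.
Axl: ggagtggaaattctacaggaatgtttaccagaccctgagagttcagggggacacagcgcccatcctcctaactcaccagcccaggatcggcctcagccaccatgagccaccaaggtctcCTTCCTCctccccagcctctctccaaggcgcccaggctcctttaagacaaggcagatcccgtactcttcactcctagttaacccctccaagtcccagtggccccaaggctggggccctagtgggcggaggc
Trem2: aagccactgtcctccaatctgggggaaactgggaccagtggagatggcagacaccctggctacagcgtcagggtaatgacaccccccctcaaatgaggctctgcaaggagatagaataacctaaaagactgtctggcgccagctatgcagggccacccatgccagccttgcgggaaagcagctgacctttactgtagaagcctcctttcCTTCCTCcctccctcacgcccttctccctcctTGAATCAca
The PU.1 match ends 125 bases before the start site of Axl and 35 bases before that of Trem2, and the AP-1 match of Trem2 ends 3 bases before it. RefSeq windows were matched by symbol for 28 of the 37 members. The PU.1 motif was in the windows of 8 of them (28.6%: Axl, C1qc, Cd5l, Fcgr1, Laptm5, Mrc1, Spp1 and Trem2), against 12% of 27025 genes. The AP-1 motif was in those of 4 (14.3%: Cd68, Itgax, Ms4a7 and Trem2), against 7.82% of genes. TCACGTG was in the window of 0 of 28 members and of 3.58% of genes. These are counts of letters in a window, not of bound sites.

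Total counts ran from 29867083 to 50012558 per library. Levels are given as CPM, which are counts scaled to a common library total with TMM factors. CTRL replicate 3 stood apart from the other controls for these genes. It was the lowest CTRL library for 34 of the 37 members (32.8% of all tested genes). It was at or below the highest 1 DPA library for 23, which is close to the share of all tested genes (62.3%). CTRL replicates 1 and 2 together averaged 3.09 times its level at the median over the members with counts in it (0.907 to 45.5), and Cd5l had 0 counts there. The median SD of log2 CPM over the members was 0.953 among CTRL libraries, against 0.191 at 1 DPA, 0.432 at 3 DPA and 0.342 at 5 DPA, while over all tested genes it was 0.122 to 0.168. The counts of members called against CTRL are therefore given with and without this library, as are the printed changes of members at 1 DPA.

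**Figure D1:**
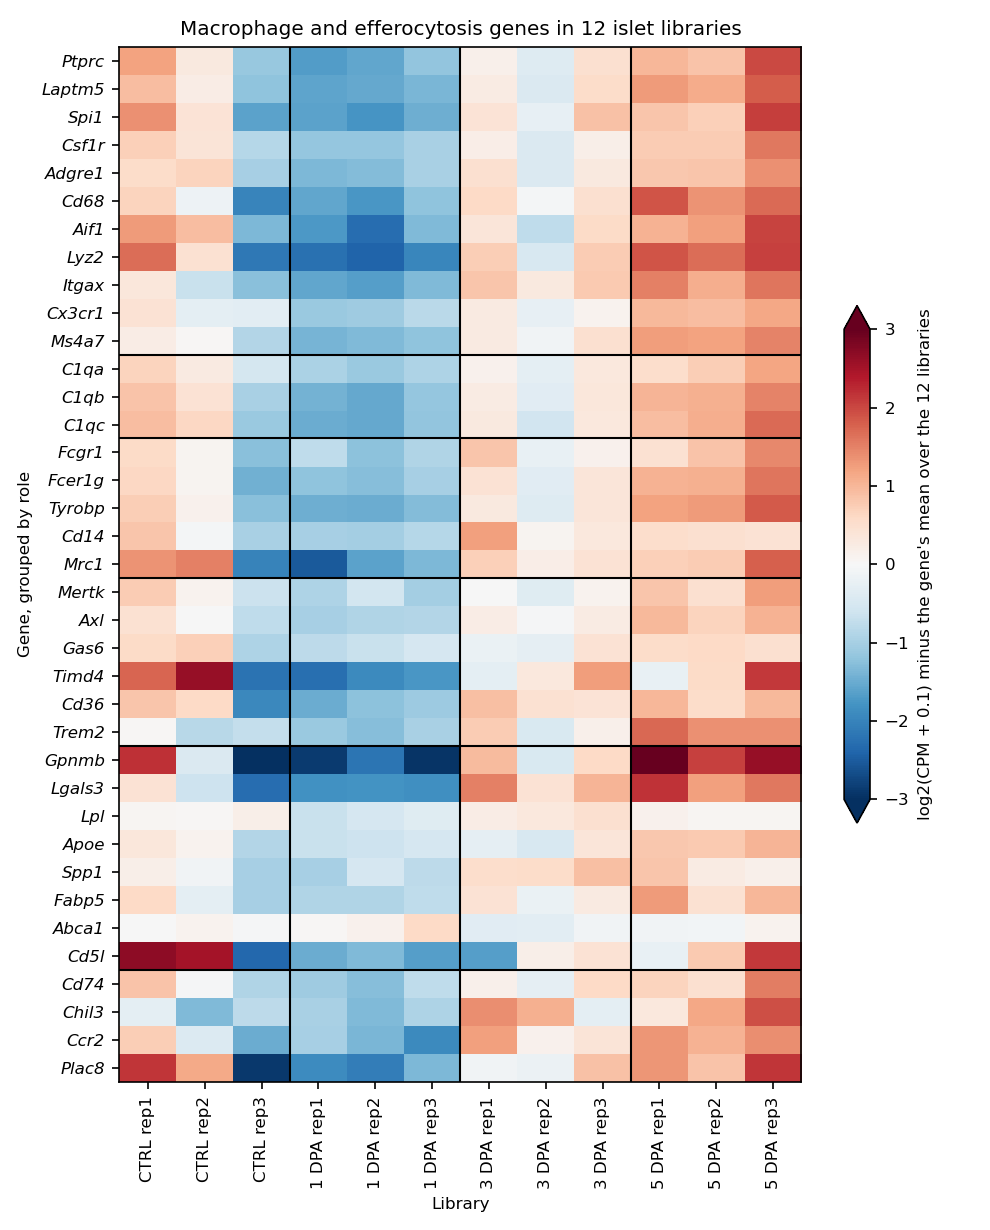
Level of the 37 genes (rows, grouped by role and separated by lines) in the 12 libraries (columns), as log2(CPM + 0.1) minus the gene's mean over the libraries, with red above and blue below the mean. The 1 DPA libraries and CTRL replicate 3 are blue for most genes and the 5 DPA libraries red, while Lpl and Abca1 vary little.

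Most of these genes were lower at 1 DPA than in CTRL, and nearly all were higher at 5 DPA than at 1 DPA. Adjusted p-values here and in what follows are Benjamini-Hochberg values from edgeR's quasi-likelihood test over all genes, called under 0.05. Shares of all genes called are those of the edgeR fit of all 12 libraries. They are not given for other fits or tools, so member counts from those cannot be set against a share. Over the 4 groups 33 of the 37 differed, where 57.4% of all 17294 tested genes did. At 1 DPA 24 members were lower than CTRL, where 22.4% of all genes were called lower, and 0 were higher, where 29.2% of all genes were. The median log2 fold change of the members was -1.30, against -0.05 over all genes. DESeq2 called 33 members lower and limma-voom 8, neither called one higher, and 31 had an unadjusted p under 0.05. For 13 members every 1 DPA library lay below every CTRL library (23.5% of all genes did so).

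The fall at 1 DPA depended on which control was kept. CTRL replicates 1 and 2 both lay above every 1 DPA library for 35 members (34% of all genes), and without CTRL replicate 3 the count of members called lower was 34, with a median log2 fold change of -1.66. The 10 added were Apoe, Ccr2, Cd14, Cd68, Cd74, Fabp5, Fcgr1, Gas6, Lgals3 and Spp1. Without CTRL replicate 1 it was 12, with a median of -0.81. It was also 11 without 1 DPA replicate 1 and 14 without 1 DPA replicate 2. The calls that held whichever of the 12 libraries was left out were those of Adgre1, Aif1, Axl, C1qa, C1qb, C1qc, Cx3cr1, Lpl, Ms4a7 and Tyrobp. CTRL replicate 3 had a median ratio of 1.03 to the 1 DPA mean over the members.

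No member was called at 3 DPA against CTRL. edgeR called 0 of 37 higher, where 10.2% of all genes were, and 0 lower, where 2.37% were, with a median log2 fold change of -0.02 (all genes -0.01), which was -0.31 without CTRL replicate 3 and 0.48 without CTRL replicate 1. At an unadjusted p under 0.05 there were 6, DESeq2 called Itgax and Spp1 higher, and limma-voom called these and Lgals3. Without CTRL replicate 1 edgeR called Itgax, Lgals3, Ccr2 and Spp1 higher, and without CTRL replicate 3 it called Cd5l lower. Against 1 DPA, 28 members were higher at 3 DPA, where 20.4% of all genes were, and Abca1 was lower, where 24.7% of all genes were. The median change was 1.57 (all genes 0.04), and every 3 DPA library lay above every 1 DPA library for 35 members (30% of all genes). The 28 calls were 35 without CTRL replicate 3, and 13 to 16 without any 1 of 1 DPA replicates 1, 2 and 3 and 3 DPA replicates 1 and 3.

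By 5 DPA 7 members were higher than CTRL, where 5.87% of all genes were: Trem2, Ms4a7, Cx3cr1, Itgax, Chil3, Lgals3 and Axl. Chil3 passed the filter on low counts only through its 3 and 5 DPA libraries and had to differ, so its call says nothing further. Without it the counts of members called are 6 here, 27 higher at 3 than at 1 DPA, 34 higher at 5 than at 1 DPA and 32 over the 4 groups. The counts of members with every library above, also without it, are 15 at 5 DPA against CTRL, 34 at 3 against 1 DPA and 35 at 5 against 1 DPA. None was called lower by edgeR, DESeq2 or limma-voom (2.67% of all genes by edgeR), and 19 members had an unadjusted p under 0.05. The median change was 0.91 (all genes 0.01), and for 16 members the 5 DPA libraries all lay above the CTRL libraries (16.5% of all genes). Without CTRL replicate 3 there were 6 calls, with Cd68 in and Chil3 and Lgals3 out, and the median was 0.54. Without CTRL replicate 1 there were 16, and without CTRL replicate 2 there were 2, Ms4a7 and Trem2, the pair that stayed called whichever library was left out. Any other library left out gave 3 to 5.

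The clearest difference was between 5 and 1 DPA, which involves no control library except through the shared spread. Here 35 members were higher at 5 DPA, where 26.3% of all genes were, and 0 were lower by edgeR or DESeq2, where edgeR called 29.8% of all genes lower. The median change was 2.65 (all genes 0.01). For 36 members the 5 DPA libraries lay above all 1 DPA libraries (32.2% of all genes), the exception being Abca1. Of the 35 calls, 32 held whichever library was left out, and those of Gas6, Plac8 and Timd4 ended without 1 DPA replicate 1 (32 calls in that fit). From 3 to 5 DPA 3 members were higher, Cx3cr1, Ms4a7 and Trem2, where 0.705% of all genes were. None was called lower (2.46% of all genes), 19 had an unadjusted p under 0.05, and DESeq2 called 8 higher and limma-voom 3. Every 5 DPA library lay above every 3 DPA library for 23 members (12% of all genes). The deviations of 3 and 5 DPA libraries of the same number correlated weakly (0.156, 0.187 and 0.326), though the labels give no pairing. With the replicate number as a block the call of Ms4a7 ended and 2 remained. Leaving out any 3 or 5 DPA library ended all 3 calls, leaving out CTRL replicate 2 or any 1 DPA library left 1, and leaving out CTRL replicate 3 gave 13.

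**Figure D2:**
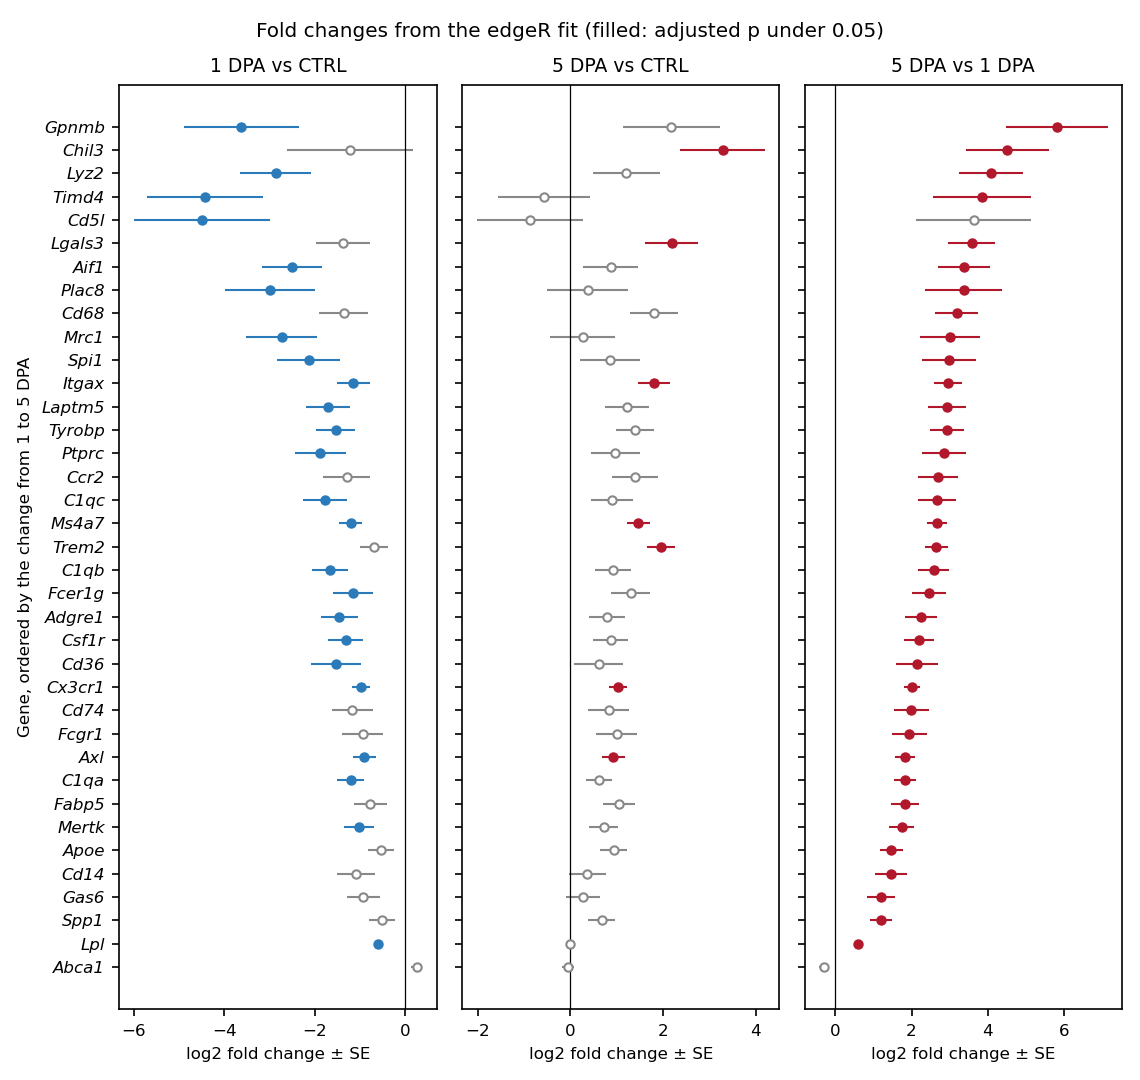
Log2 fold change of each of the 37 genes with its standard error for 1 DPA against CTRL, 5 DPA against CTRL and 5 DPA against 1 DPA, in the order of the last. Filled points have an edgeR adjusted p under 0.05 (blue lower, red higher): 24, 7 and 35 of the 37.

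Of the 11 leukocyte and macrophage lineage genes, 10 were lower at 1 DPA than in CTRL, 11 were higher at 3 DPA than at 1 DPA, and 11 were higher at 5 DPA than at 1 DPA. Over all genes tested these shares were 22.4, 20.4 and 26.3%. Csf1r, the receptor for CSF1 and IL-34 on which macrophages depend, measured 57.6, 45.9 and 19.5 CPM in CTRL, 15.7, 15.7 and 17.8 at 1 DPA, 40.2, 26.03 and 39.8 at 3 DPA and 59.8, 59.9 and 105 at 5 DPA. Its 1 DPA libraries lay below all controls, with CTRL replicate 3 close above them, and every 5 DPA library lay above every control. The log2 fold change of Csf1r at 1 DPA was -1.32 ± 0.39, adjusted p = 0.0174, a call that ended when replicate 1 of CTRL or replicate 1 or 2 of 1 DPA was left out (adjusted p 0.0533 to 0.0585), and without CTRL replicate 3 it was -1.66 ± 0.28, adjusted p = 0.00099. At 5 DPA against CTRL it was 0.87 ± 0.37, adjusted p = 0.188. Adgre1, which encodes the macrophage surface protein F4/80, measured 20.7, 22.3 and 7.03 CPM in CTRL, 5.48, 5.59 and 7.103 at 1 DPA, 19.7, 10.4 and 17.1 at 3 DPA and 24.6, 25.1 and 36.7 at 5 DPA. CTRL replicate 3 lay within the 1 DPA range and the other controls just below the 5 DPA libraries. The change of Adgre1 at 1 DPA was -1.46 ± 0.41, adjusted p = 0.0133, a call that held whichever library was left out, and -1.83 ± 0.26, adjusted p = 0.000251 without CTRL replicate 3.

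Ptprc, the leukocyte phosphatase CD45, measured 31.2, 16.5 and 6.06 CPM in CTRL, 4.18, 4.51 and 5.87 at 1 DPA, 14.9, 10.3 and 18.8 at 3 DPA and 27.1, 24.6 and 53.7 at 5 DPA. CTRL replicate 1 stood at the 5 DPA level and CTRL replicate 3 just above the 1 DPA libraries. The change of Ptprc at 1 DPA was -1.88 ± 0.56, adjusted p = 0.019. This Ptprc call ended when replicate 1 of CTRL or replicate 1 or 2 of 1 DPA was left out (adjusted p 0.0589 to 0.0655). For Ptprc the 1 DPA change was -2.30 ± 0.43, adjusted p = 0.00198, without CTRL replicate 3. Spi1, which encodes the transcription factor PU.1, measured 23.4, 11.9 and 2.86 CPM in CTRL, 2.89, 2.56 and 3.203 at 1 DPA, 11.98, 7.55 and 16.7 at 3 DPA and 16.1, 14.8 and 37.9 at 5 DPA. Laptm5, a lysosomal membrane protein of blood cells, measured 92.2, 56.3 and 20.9 CPM in CTRL, 16.3, 16.7 and 18.7 at 1 DPA, 57.5, 35.8 and 71.3 at 3 DPA and 119, 105 and 172 at 5 DPA. Aif1, the actin-binding protein IBA1, was lower in level, at 7.54, 5.88 and 1.15 CPM in CTRL, 0.853, 0.554 and 1.17 at 1 DPA, 3.96, 1.75 and 4.61 at 3 DPA and 6.403, 7.38 and 12.9 at 5 DPA. In all 3 of these genes CTRL replicate 3 lay below every 3 DPA library. Between 1 and 5 DPA the change was 2.99 ± 0.71, adjusted p = 0.00576 for Spi1, 2.94 ± 0.50, adjusted p = 0.000978 for Laptm5 and 3.37 ± 0.67, adjusted p = 0.00176 for Aif1, and these calls held whichever library was left out.

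Cd68 and Lyz2 are genes of the phagocyte lysosome, and both had a wide spread in CTRL. Lyz2, the myeloid lysozyme, measured 221, 95.1 and 15.6 CPM in CTRL, 14.6, 12.96 and 17.8 at 1 DPA, 116, 49.3 and 118 at 3 DPA and 257, 221 and 289 at 5 DPA. CTRL replicate 3 lay within the 1 DPA range and CTRL replicate 1 at the level of the lowest 5 DPA library. The change of Lyz2 at 1 DPA was -2.87 ± 0.79, adjusted p = 0.0143, a call that ended when replicate 1 of CTRL was left out (adjusted p = 0.0522), and -3.39 ± 0.46, adjusted p = 0.00043 without CTRL replicate 3. It was 4.08 ± 0.83, adjusted p = 0.00281 from 1 to 5 DPA. Reads that Lyz2 shares with its close paralogue Lyz1 may have been split in the counting. Cd68 measured 23.2, 13.1 and 3.64 CPM in CTRL, 4.93, 4.25 and 6.28 at 1 DPA, 22.3, 13.9 and 20.5 at 3 DPA and 54.5, 37.5 and 47.7 at 5 DPA. All 5 DPA libraries lay above all controls, and CTRL replicate 3 was the lowest of the 12. The change of Cd68 was -1.37 ± 0.54, adjusted p = 0.0575 at 1 DPA and 1.81 ± 0.52, adjusted p = 0.0614 at 5 DPA against CTRL, neither of them called, and 3.18 ± 0.55, adjusted p = 0.00103 from 1 to 5 DPA. Without CTRL replicate 3 both were called, at -1.82 ± 0.29, adjusted p = 0.000638 and 1.36 ± 0.29, adjusted p = 0.0345.

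Cx3cr1, Itgax and Ms4a7 were lower than CTRL at 1 DPA and higher than CTRL at 5 DPA, in comparisons that share the controls. Cx3cr1, the receptor of the membrane chemokine fractalkine, measured 26.9, 16.3 and 16.1 CPM in CTRL, 9.25, 9.47 and 11.4 at 1 DPA, 24.2, 16.9 and 21.6 at 3 DPA and 39.1, 37.9 and 44.7 at 5 DPA. CTRL replicates 2 and 3 were alike and replicate 1 higher, with all 1 DPA libraries below the controls and all 5 DPA libraries above them. The change of Cx3cr1 was -0.98 ± 0.20, adjusted p = 0.00191 at 1 DPA, a call that held whichever library was left out (-1.11 ± 0.21, adjusted p = 0.00112 without CTRL replicate 3), and 1.04 ± 0.20, adjusted p = 0.0114 at 5 DPA. This Cx3cr1 call ended when replicate 2 of CTRL was left out (adjusted p = 0.0558). From 3 to 5 DPA it was 0.95 ± 0.20, adjusted p = 0.0307. This Cx3cr1 call ended when any 3 DPA library or any 5 DPA library was left out (adjusted p 0.0786 to 0.111). Ms4a7, a membrane protein of macrophages (mm10 chr19:11321039-11336146), measured 8.395, 7.42 and 3.86 CPM in CTRL, 2.67, 2.797 and 3.04 at 1 DPA, 8.68, 6.65 and 10.2 at 3 DPA and 17.2, 16.7 and 20.4 at 5 DPA. Every 1 DPA library lay below and every 5 DPA library above the controls, and the 3 DPA libraries overlapped them. The change of Ms4a7 was -1.21 ± 0.25, adjusted p = 0.00195 at 1 DPA and 1.46 ± 0.25, adjusted p = 0.00593 at 5 DPA, and both calls held whichever library was left out. At 1 DPA it was -1.48 ± 0.17, adjusted p = 3.35e-05 without CTRL replicate 3. From 3 to 5 DPA it was 1.09 ± 0.24, adjusted p = 0.0364. This Ms4a7 call ended when replicate 2 of CTRL, any 1 DPA library, any 3 DPA library or any 5 DPA library was left out (adjusted p 0.0505 to 0.154).

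Itgax, the integrin subunit CD11c found on dendritic cells and some macrophages, measured 16.8, 8.26 and 5.501 CPM in CTRL, 4.41, 4.14 and 5.201 at 1 DPA, 23.6, 16.1 and 22.97 at 3 DPA and 38.1, 28.5 and 40.7 at 5 DPA. Its 3 DPA libraries overlapped CTRL replicate 1 and lay above the other controls, and its 5 DPA libraries lay above all of these. The change of Itgax was -1.15 ± 0.36, adjusted p = 0.0218 at 1 DPA. This Itgax call ended when replicate 1 of CTRL or replicate 1 or 2 of 1 DPA was left out (adjusted p 0.0523 to 0.0697). For Itgax the 1 DPA change was -1.45 ± 0.30, adjusted p = 0.00248, without CTRL replicate 3. At 5 DPA against CTRL it was 1.82 ± 0.35, adjusted p = 0.0135, a call that ended when replicate 2 of CTRL or replicate 1 of 5 DPA was left out (adjusted p 0.0535 to 0.0617), and 1.52 ± 0.30, adjusted p = 0.0249 without CTRL replicate 3. From 1 to 3 DPA it was 2.19 ± 0.36, adjusted p = 0.000822. This Itgax call held whichever library was left out.

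**Figure D3:**
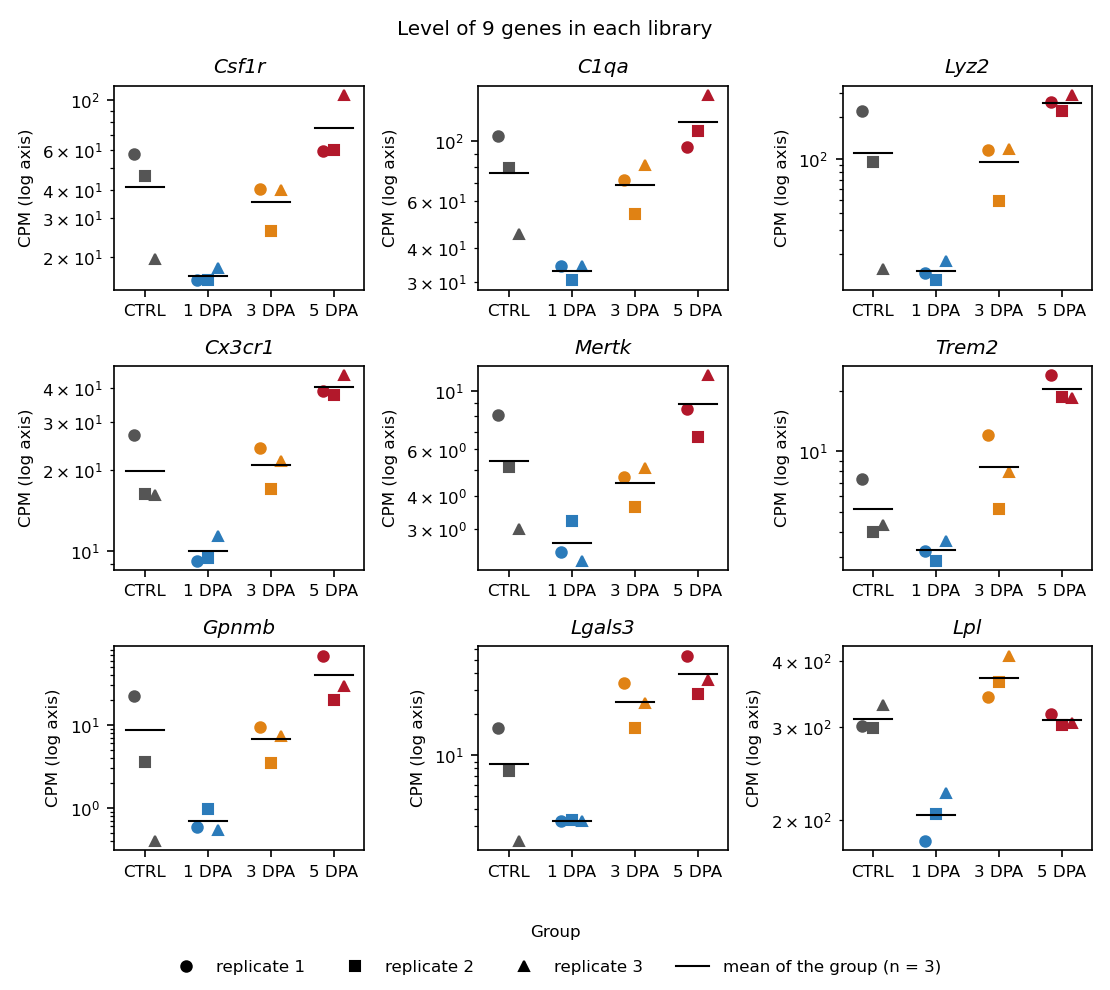
Level of 9 genes in each library, in CPM on a log axis, with a symbol for each replicate number and a line at the mean of each group (n = 3). The 1 DPA symbols lie at the bottom of the panels, joined or passed by CTRL replicate 3 in Lyz2, Mertk, Gpnmb and Lgals3, and Lpl is the panel in which CTRL replicate 3 is the highest control.

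The C1q chains form the recognition subunit of the classical complement pathway, which binds dying cells, and macrophages are a main source of it. Their genes lie side by side on chromosome 4, from C1qb (mm10 chr4:136880129-136886187) to C1qa (chr4:136895917-136898803). All 3 were lower at 1 DPA than in CTRL, higher at 3 DPA than at 1 DPA and higher at 5 DPA than at 1 DPA, as were 22.4, 20.4 and 26.3% of all genes. C1qa measured 105, 79.5 and 45.3 CPM in CTRL, 34.2, 30.4 and 34.4 at 1 DPA, 71.6, 53.7 and 81.6 at 3 DPA and 94.8, 109 and 148 at 5 DPA. C1qb measured 59.1, 44.4 and 16.5 CPM in CTRL, 12.1, 11.2 and 14.5 at 1 DPA, 38.7, 25.6 and 41.3 at 3 DPA and 65.9, 68.5 and 91.1 at 5 DPA. C1qc measured 53.9, 43.1 and 13.1 CPM in CTRL, 9.99, 9.71 and 12.4 at 1 DPA, 34.4, 18.9 and 34.9 at 3 DPA and 53.6, 60.4 and 91.1 at 5 DPA. No 1 DPA library reached a control library in any chain, and CTRL replicate 3 was the lowest control in each. The changes at 1 DPA were -1.21 ± 0.29, adjusted p = 0.00618 for C1qa, -1.67 ± 0.41, adjusted p = 0.00719 for C1qb and -1.78 ± 0.48, adjusted p = 0.0125 for C1qc, and these calls held whichever library was left out. Without CTRL replicate 3 they were -1.48 ± 0.22, adjusted p = 0.000369, -2.04 ± 0.23, adjusted p = 6.51e-05 and -2.18 ± 0.31, adjusted p = 0.000343 in the same order. From 1 to 3 DPA the change was 1.06 ± 0.29, adjusted p = 0.014 for C1qa, 1.49 ± 0.41, adjusted p = 0.0148 for C1qb and 1.46 ± 0.48, adjusted p = 0.0329 for C1qc. This C1qa call ended when replicate 3 of 3 DPA was left out (adjusted p = 0.0504). This C1qb call ended when replicate 2 of 1 DPA was left out (adjusted p = 0.0513). This C1qc call ended when any 1 DPA library or replicate 1 or 3 of 3 DPA was left out (adjusted p 0.0643 to 0.0918). From 1 to 5 DPA the changes were 1.83 ± 0.29, adjusted p = 0.000553, 2.58 ± 0.41, adjusted p = 0.000628 and 2.67 ± 0.49, adjusted p = 0.00143 in the same order. Against CTRL at 5 DPA none of the chains was called, with changes of 0.62 ± 0.28, 0.91 ± 0.39 and 0.90 ± 0.46.

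Among the 5 adaptors, Fc receptors and pattern receptors, 3 were lower at 1 DPA than in CTRL (Tyrobp, Mrc1 and Fcer1g), 5 were higher at 3 DPA than at 1 DPA and 5 at 5 DPA than at 1 DPA (all genes 22.4, 20.4 and 26.3%). Tyrobp, the adaptor DAP12 through which Trem2 signals, measured 14.3, 9.31 and 3.504 CPM in CTRL, 3.001, 2.96 and 3.36 at 1 DPA, 10.3, 6.45 and 10.9 at 3 DPA and 19.7, 20.7 and 30.5 at 5 DPA. The 1 DPA libraries lay just below CTRL replicate 3 and well below the other controls, and all 5 DPA libraries lay above them. The change of Tyrobp at 1 DPA was -1.54 ± 0.43, adjusted p = 0.0127, a call that held whichever library was left out (-1.92 ± 0.27, adjusted p = 0.000168 without CTRL replicate 3), and at 5 DPA against CTRL it was 1.39 ± 0.41, adjusted p = 0.0648. Fcer1g, the gamma chain shared by Fc receptors, measured 11.6, 7.95 and 2.73 CPM in CTRL, 3.22, 3.03 and 3.71 at 1 DPA, 10.2, 5.97 and 9.77 at 3 DPA and 15.7, 15.9 and 23.3 at 5 DPA. Its CTRL replicate 3 was the lowest of the 12 libraries. The change of Fcer1g at 1 DPA was -1.16 ± 0.43, adjusted p = 0.0452. This Fcer1g call ended when replicate 1 or 2 of CTRL, any 1 DPA library, replicate 3 of 3 DPA or replicate 1 or 2 of 5 DPA was left out (adjusted p 0.0564 to 0.172). For Fcer1g the 1 DPA change was -1.56 ± 0.26, adjusted p = 0.000494, without CTRL replicate 3. Fcgr1, the high-affinity receptor for IgG, measured 12.4, 8.81 and 3.39 CPM in CTRL, 4.87, 3.48 and 4.41 at 1 DPA, 14.8, 7.04 and 9.11 at 3 DPA and 11.4, 15.1 and 22.7 at 5 DPA, with CTRL replicate 3 again the lowest library. The change of Fcgr1 was -0.94 ± 0.45, adjusted p = 0.104 at 1 DPA, not called, and 1.94 ± 0.46, adjusted p = 0.0047 from 1 to 5 DPA. Fcgr1 was called lower at 1 DPA without CTRL replicate 3, at -1.32 ± 0.35, adjusted p = 0.0102.

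Mrc1, the mannose receptor CD206 of resident and alternatively activated macrophages, measured 15.0, 16.9 and 1.38 CPM in CTRL, 0.936, 1.85 and 2.22 at 1 DPA, 9.59, 6.71 and 7.95 at 3 DPA and 9.58, 9.92 and 20.6 at 5 DPA. CTRL replicates 1 and 2 were higher than 5 DPA replicates 1 and 2, while CTRL replicate 3 fell within the 1 DPA range. The change of Mrc1 at 1 DPA was -2.73 ± 0.79, adjusted p = 0.016, a call that ended when replicate 1 of 1 DPA was left out (adjusted p = 0.061), and at 5 DPA against CTRL it was 0.27 ± 0.71, adjusted p = 0.859. For Mrc1 the 1 DPA change was -3.26 ± 0.40, adjusted p = 8.89e-05, without CTRL replicate 3. Cd14, the co-receptor for bacterial lipopolysaccharide, measured 16.6, 8.83 and 4.66 CPM in CTRL, 4.598, 4.54 and 5.04 at 1 DPA, 21.9, 9.73 and 11.5 at 3 DPA and 13.4, 12.9 and 12.4 at 5 DPA. Its highest library was 3 DPA replicate 1, and the 5 DPA libraries lay within the CTRL range. Cd14 was higher at 3 DPA than at 1 DPA, by 1.61 ± 0.42, adjusted p = 0.0107, a call that held whichever library was left out, and its change from 3 to 5 DPA was -0.16 ± 0.40, adjusted p = 0.886.

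Of the 5 efferocytosis receptors and the ligand Gas6, 4 genes were lower at 1 DPA than in CTRL (Axl, Timd4, Mertk and Cd36), 3 were higher at 3 DPA than at 1 DPA (Trem2, Axl and Cd36), and 6 were higher at 5 DPA than at 1 DPA. The shares of all genes were 22.4, 20.4 and 26.3%. Trem2 and Axl were also higher than CTRL at 5 DPA. Trem2, a receptor for lipids and dying cells that signals through Tyrobp, whose upstream bases hold both the PU.1 and the AP-1 letters, measured 7.304, 3.99 and 4.303 CPM in CTRL, 3.22, 2.88 and 3.58 at 1 DPA, 12.1, 5.18 and 7.91 at 3 DPA and 23.8, 18.7 and 18.5 at 5 DPA. Its controls lay above the 1 DPA libraries, CTRL replicate 2 was the lowest control, and all 5 DPA libraries lay above every other library. The change of Trem2 at 1 DPA was -0.69 ± 0.31, adjusted p = 0.0807, not called, and -0.81 ± 0.34, adjusted p = 0.0697 without CTRL replicate 3. At 5 DPA against CTRL it was 1.97 ± 0.30, adjusted p = 0.0044. This Trem2 call held whichever library was left out. From 3 to 5 DPA it was 1.27 ± 0.29, adjusted p = 0.043, a call that ended when replicate 2 of CTRL, any 1 DPA library, any 3 DPA library or any 5 DPA library was left out (adjusted p 0.0524 to 0.172), and from 1 to 5 DPA it was 2.65 ± 0.31, adjusted p = 4.02e-05.

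Axl and Mertk are receptor tyrosine kinases that bind Gas6, the protein that bridges them to phosphatidylserine. Axl measured 99.0, 70.96 and 41.9 CPM in CTRL, 35.7, 37.9 and 39.1 at 1 DPA, 83.6, 69.4 and 84.7 at 3 DPA and 139.9, 114 and 148 at 5 DPA. Every 1 DPA library lay below every control and every 5 DPA library above them. The change of Axl at 1 DPA was -0.91 ± 0.25, adjusted p = 0.0121. This Axl call held whichever library was left out. For Axl the 1 DPA change was -1.18 ± 0.15, adjusted p = 8.49e-05, without CTRL replicate 3. At 5 DPA it was 0.92 ± 0.25, adjusted p = 0.0474. This Axl call ended when replicate 2 of CTRL, any 1 DPA library, any 3 DPA library or any 5 DPA library was left out (adjusted p 0.0603 to 0.149). Mertk, which resident macrophages use to take up dying cells, measured 8.08, 5.14 and 2.99 CPM in CTRL, 2.45, 3.22 and 2.28 at 1 DPA, 4.74, 3.65 and 5.103 at 3 DPA and 8.51, 6.704 and 11.4 at 5 DPA. CTRL replicate 3 lay within the 1 DPA range and the controls overlapped the 5 DPA libraries. The change of Mertk at 1 DPA was -1.02 ± 0.33, adjusted p = 0.0209. This Mertk call ended when replicate 1 of CTRL or replicate 1 or 3 of 1 DPA was left out (adjusted p 0.0651 to 0.0891). It was -1.31 ± 0.27, adjusted p = 0.00155 without CTRL replicate 3, and at 5 DPA against CTRL 0.72 ± 0.32, adjusted p = 0.188. Gas6 measured 98.8, 108 and 34.5 CPM in CTRL, 38.2, 41.4 and 46.6 at 1 DPA, 58.1, 55.1 and 89.1 at 3 DPA and 97.6, 101 and 92.5 at 5 DPA. CTRL replicate 3 was the lowest of the 12 libraries, and the other controls lay within or above the 5 DPA range. The change of Gas6 was -0.94 ± 0.36, adjusted p = 0.0558 at 1 DPA, not called, but -1.30 ± 0.18, adjusted p = 0.000187 without CTRL replicate 3. At 5 DPA against 1 DPA it was 1.21 ± 0.37, adjusted p = 0.0187. This Gas6 call ended when replicate 1 or 2 of 1 DPA was left out (adjusted p 0.0532 to 0.0613).

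Timd4, which encodes the phosphatidylserine receptor TIM-4 of long-lived resident macrophages, measured 2.81, 5.26 and 0.0887 CPM in CTRL, 0.0826, 0.132 and 0.159 at 1 DPA, 0.614, 0.9902 and 1.98 at 3 DPA and 0.646, 1.19 and 3.697 at 5 DPA. Its highest libraries were CTRL replicate 2, 5 DPA replicate 3 and CTRL replicate 1. The counts summed to 331 in CTRL, of which 4 were in replicate 3, and to 13 at 1 DPA, 160 at 3 DPA and 228 at 5 DPA. Timd4 at 1 DPA changed by -4.43 ± 1.28, adjusted p = 0.0152. This Timd4 call ended when replicate 1 or 2 of 1 DPA was left out (adjusted p 0.0501 to 0.058). For Timd4 the 1 DPA change was -5.0 ± 0.83, adjusted p = 0.000599, without CTRL replicate 3. From 1 to 5 DPA the change was 3.85 ± 1.28, adjusted p = 0.0261. This Timd4 call ended when any 1 DPA library or replicate 3 of 5 DPA was left out (adjusted p 0.0623 to 0.0872). Cd36, a scavenger receptor for oxidised lipids and dying cells, measured 22.8, 19.4 and 3.26 CPM in CTRL, 4.46, 5.41 and 5.898 at 1 DPA, 23.7, 17.6 and 17.1 at 3 DPA and 25.7, 18.8 and 25.02 at 5 DPA. CTRL replicate 3 was the lowest of the 12 libraries, and the other controls lay with the 3 and 5 DPA libraries. The change of Cd36 at 1 DPA was -1.52 ± 0.55, adjusted p = 0.0433. This Cd36 call ended when replicate 1 or 2 of CTRL, any 1 DPA library, replicate 2 or 3 of 3 DPA or any 5 DPA library was left out (adjusted p 0.0558 to 0.137). Without CTRL replicate 3 it was -2.0 ± 0.18, adjusted p = 6.24e-06.

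Of the 8 genes of lipid handling and secreted products, 3 were lower at 1 DPA than in CTRL (Lpl, Cd5l and Gpnmb), 4 were higher at 3 than at 1 DPA (Lpl, Spp1, Lgals3 and Fabp5) with Abca1 lower, and 6 were higher at 5 than at 1 DPA. Among all genes 22.4% were lower at 1 DPA, 20.4% higher and 24.7% lower at 3 than at 1 DPA, and 26.3% higher at 5 than at 1 DPA. Gpnmb, a membrane glycoprotein of lipid-laden macrophages (mm10 chr6:49036546-49070929), measured 22.3, 3.58 and 0.399 CPM in CTRL, 0.578, 0.976 and 0.539 at 1 DPA, 9.44, 3.51 and 7.33 at 3 DPA and 68.7, 20.2 and 29.9 at 5 DPA. The controls ran from below the 1 DPA libraries to the level of the lowest 5 DPA library, and each 5 DPA library lay above each 3 DPA library. Gpnmb had the largest fitted change from 1 to 5 DPA among the 37 members, 5.81 ± 1.33, adjusted p = 0.00534, and at 5 DPA against CTRL its change was 2.18 ± 1.06, adjusted p = 0.245. At 1 DPA it was -3.62 ± 1.28, adjusted p = 0.0407. This Gpnmb call ended when replicate 1 of CTRL, any 1 DPA library, replicate 2 or 3 of 3 DPA or replicate 3 of 5 DPA was left out (adjusted p 0.0507 to 0.237). For Gpnmb the 1 DPA change was -4.19 ± 0.97, adjusted p = 0.00748, without CTRL replicate 3.

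Lgals3, the secreted lectin galectin-3, measured 15.98, 7.66 and 2.35 CPM in CTRL, 3.28, 3.35 and 3.27 at 1 DPA, 33.99, 15.96 and 24.2 at 3 DPA and 54.1, 28.1 and 35.8 at 5 DPA. The lowest 3 DPA library lay at the level of the highest control, and CTRL replicate 3 lay below the 1 DPA libraries. Lgals3 was higher at 3 DPA than at 1 DPA, by 2.91 ± 0.61, adjusted p = 0.00412. This Lgals3 call held whichever library was left out. At 5 DPA against CTRL it was 2.19 ± 0.57, adjusted p = 0.0472. This Lgals3 call ended when replicate 2 or 3 of CTRL, any 1 DPA library, any 3 DPA library or any 5 DPA library was left out (adjusted p 0.0577 to 0.163). Spp1, osteopontin, which pancreatic duct cells also make, measured 101, 83.2 and 44.8 CPM in CTRL, 45.2, 62.8 and 51.7 at 1 DPA, 129.8, 132 and 168 at 3 DPA and 160.3, 106 and 99.04 at 5 DPA. Its 3 DPA libraries lay above all controls and overlapped the 5 DPA range. Spp1 was higher at 3 than at 1 DPA, by 1.43 ± 0.29, adjusted p = 0.00339, a call that held whichever library was left out, and its change at 3 DPA against CTRL was 0.91 ± 0.29, adjusted p = 0.0734. Fabp5, a carrier of fatty acids in the cell, measured 19.5, 10.6 and 6.45 CPM in CTRL, 6.86, 6.84 and 7.61 at 1 DPA, 17.5, 11.3 and 15.6 at 3 DPA and 31.7, 17.8 and 26.1 at 5 DPA. CTRL replicate 3 was the lowest library, and the change of Fabp5 from 1 to 5 DPA was 1.83 ± 0.36, adjusted p = 0.00178. This Fabp5 call held whichever library was left out.

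Lpl, Apoe and Abca1 are made by many cell types. Lpl, lipoprotein lipase, measured 301, 298 and 330.5 CPM in CTRL, 183, 206 and 225 at 1 DPA, 341, 364 and 409 at 3 DPA and 318, 303 and 305 at 5 DPA. CTRL replicate 3 was the highest control here, the 1 DPA libraries lay below all others and the 3 DPA libraries above all others. The change of Lpl at 1 DPA was -0.60 ± 0.09, adjusted p = 0.000113, a call that held whichever library was left out (-0.55 ± 0.09, adjusted p = 0.000379 without CTRL replicate 3), and from 1 to 3 DPA it was 0.86 ± 0.09, adjusted p = 1.65e-05. Apoe, the lipoprotein that macrophages secrete when loaded with cholesterol, measured 542, 460.3 and 232 CPM in CTRL, 269, 277 and 304 at 1 DPA, 356, 309 and 549 at 3 DPA and 746, 739 and 871 at 5 DPA. All 5 DPA libraries lay above all others, and CTRL replicate 3 below all 1 DPA libraries. The change of Apoe was -0.54 ± 0.29, adjusted p = 0.143 at 1 DPA and 0.93 ± 0.29, adjusted p = 0.0778 at 5 DPA against CTRL, neither of them called, and 1.47 ± 0.29, adjusted p = 0.00195 from 1 to 5 DPA. Without CTRL replicate 3 the first was -0.82 ± 0.20, adjusted p = 0.00643. Abca1, the cholesterol exporter, measured 168, 184 and 167 CPM in CTRL, 175, 186 and 256 at 1 DPA, 134, 137 and 158 at 3 DPA and 159, 161 and 183 at 5 DPA. Its highest library was at 1 DPA, and its 3 DPA libraries lay below all CTRL and 1 DPA libraries. Abca1 was lower at 3 than at 1 DPA, with a change of -0.52 ± 0.13, adjusted p = 0.00612, a call that held whichever library was left out, and from 1 to 5 DPA its change was -0.30 ± 0.13, adjusted p = 0.0669.

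Cd5l, a protein secreted by tissue macrophages, measured 3.197, 2.78 and 0 CPM in CTRL, 0.0826, 0.106 and 0.0634 at 1 DPA, 0.0635, 0.481 and 0.599 at 3 DPA and 0.342, 0.793 and 2.15 at 5 DPA. The highest libraries were CTRL replicates 1 and 2 and 5 DPA replicate 3, as for Timd4. The counts summed to 239 in CTRL, 9 at 1 DPA, 49 at 3 DPA and 136 at 5 DPA, and the 0 counts of CTRL replicate 3 allow up to 0.0665 CPM (3 counts). In summed counts the 1 DPA level was 0.0454 of CTRL (exact 95% interval 0.0205 to 0.0877, counting error alone). The fitted change at 1 DPA was -4.5 ± 1.5, adjusted p = 0.0287, a call that ended when replicate 1 or 2 of CTRL or any 1 DPA library was left out (adjusted p 0.0582 to 0.0858), and from 1 to 5 DPA it was 3.62 ± 1.51, adjusted p = 0.0625. For Cd5l the 1 DPA change was -5.09 ± 0.91, adjusted p = 0.000846, without CTRL replicate 3.

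Among the 4 genes of antigen presentation and of monocytes, Plac8 was lower at 1 DPA than in CTRL, Ccr2 and Chil3 were higher at 3 than at 1 DPA, and 4, Chil3 among them, were higher at 5 than at 1 DPA. Lower at 1 DPA, 1 of 4 is close to the 22.4% of all genes, and the other shares of all genes were 20.4 and 26.3%. Ccr2, the chemokine receptor that brings monocytes into tissue, measured 8.66, 3.87 and 1.77 CPM in CTRL, 2.53, 1.93 and 1.30 at 1 DPA, 12.2, 5.69 and 6.797 at 3 DPA and 13.02, 10.7 and 13.7 at 5 DPA. All 5 DPA libraries lay above all controls, and 3 DPA replicate 1 reached them. The change of Ccr2 was -1.30 ± 0.52, adjusted p = 0.0569 at 1 DPA and 1.39 ± 0.50, adjusted p = 0.113 at 5 DPA against CTRL, neither of them called. Ccr2 was called lower at 1 DPA without CTRL replicate 3, at -1.69 ± 0.41, adjusted p = 0.00626, and without CTRL replicate 1 it was called higher at 5 DPA, at 2.14 ± 0.43, adjusted p = 0.0154. From 1 to 3 DPA it was 2.10 ± 0.52, adjusted p = 0.00823. This Ccr2 call held whichever library was left out. Plac8, expressed in monocytes among other cells, measured 22.9, 11.2 and 0.599 CPM in CTRL, 1.29, 1.13 and 1.93 at 1 DPA, 4.68, 4.47 and 9.46 at 3 DPA and 12.8, 9.302 and 22.8 at 5 DPA. CTRL replicate 1 and 5 DPA replicate 3 were the highest libraries and CTRL replicate 3 the lowest. The change of Plac8 at 1 DPA was -3.0 ± 1.0, adjusted p = 0.0314. This Plac8 call ended when replicate 1 or 2 of CTRL or any 1 DPA library was left out (adjusted p 0.0505 to 0.11). For Plac8 the 1 DPA change was -3.56 ± 0.52, adjusted p = 0.000388, without CTRL replicate 3. Comparing 5 with 1 DPA, it was 3.37 ± 1.01, adjusted p = 0.0181. This Plac8 call ended when replicate 1 or 2 of 1 DPA or replicate 3 of 5 DPA was left out (adjusted p 0.0503 to 0.0617).

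Chil3, the chitinase-like protein Ym1 of alternatively activated macrophages, measured 0.104, 0 and 0.0444 CPM in CTRL, 0.0275, 0 and 0.0317 at 1 DPA, 0.5502, 0.424 and 0.103 at 3 DPA and 0.209, 0.456 and 0.855 at 5 DPA. All 5 DPA libraries lay above all controls. The counts summed to 6 in CTRL, 2 at 1 DPA, 46 at 3 DPA and 65 at 5 DPA, so Chil3 passed the count filters through 3 and 5 DPA alone and had to differ. In summed counts 5 DPA was 10.4 times CTRL (exact 95% interval 4.52 to 29.3, counting error alone). The 5 DPA sum was 25.8 times that of 1 DPA (6.86 to 217). Both ratios set a group through which Chil3 passed the filters against one through which it did not. They and their intervals therefore say nothing further, and the intervals leave out the spread between libraries. Reads shared with close paralogues of Chil3 may have been split. Cd74, the invariant chain that guides MHC class II molecules, measured 506, 273 and 148 CPM in CTRL, 133, 115 and 165 at 1 DPA, 310.3, 231 and 424 at 3 DPA and 444, 390.3 and 813 at 5 DPA. CTRL replicate 3 lay within the 1 DPA range and CTRL replicate 1 within the 5 DPA range. The change of Cd74 was -1.17 ± 0.45, adjusted p = 0.0544 at 1 DPA and 0.83 ± 0.45, adjusted p = 0.296 at 5 DPA against CTRL, neither of them called, and 2.0 ± 0.46, adjusted p = 0.00505 from 1 to 5 DPA. Cd74 was called lower at 1 DPA without CTRL replicate 3, at -1.5 ± 0.40, adjusted p = 0.013.

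Per length, in the authors' TPM (transcript levels corrected for length and scaled to a common total), Apoe and Cd74 were the most abundant of the 37 in every group, with means (n = 3) of 442 and 475 in CTRL, 361 and 249.96 at 1 DPA, 469 and 529.9 at 3 DPA and 926 and 919.6 at 5 DPA. The libraries of Apoe and Cd74 overlapped in each group. Lyz2 was in the third place in CTRL, at a mean of 189 TPM (27.7 to 387), and at 5 DPA, at 477 TPM (390.5 to 536), where it lay above C1qa, at 266 TPM (227 to 335). At 1 DPA Spp1, C1qa and Lpl followed Apoe and Cd74, at means of 82.3, 80.6 and 76.7 TPM, and overlapped each other. Chil3 was the least abundant in CTRL and at 1 and 5 DPA, at means of 0.0676, 0.0312 and 0.725 TPM, and Cd5l at 3 DPA, at 0.428 TPM.

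Myeloid genes outside the list were also mostly lower at 1 DPA and higher at 5 DPA than at 1 DPA. Of 30 such genes, 23 were lower at 1 DPA than in CTRL and 0 higher, 1 was lower at 3 DPA, 2 were higher at 5 DPA, and 26 were higher at 5 than at 1 DPA. Over all genes these shares were 22.4, 29.2, 2.37, 5.87 and 26.3%, so the counts at 3 and 5 DPA against CTRL are close to the share of all genes. The 23 were 27 without CTRL replicate 3 and 10 without CTRL replicate 1, and the 2 at 5 DPA were 1 and 10. Their median changes were -1.62 at 1 DPA, -0.16 at 3 DPA and 0.82 at 5 DPA. C3ar1, a receptor for a complement fragment, was higher at 5 DPA, by 1.57 ± 0.36, adjusted p = 0.0236. This C3ar1 call ended when replicate 2 or 3 of CTRL or replicate 1 or 3 of 5 DPA was left out (adjusted p 0.0528 to 0.0922). Csf2ra, a receptor subunit for GM-CSF, was the gene lower at 3 DPA, at -0.35 ± 0.10, adjusted p = 0.0478. This Csf2ra call ended when replicate 1 or 3 of CTRL, replicate 1 or 2 of 1 DPA, replicate 2 or 3 of 3 DPA or replicate 2 of 5 DPA was left out (adjusted p 0.0519 to 0.141). Cd163, a scavenger receptor of resident macrophages, measured 2.001, 2.28 and 0.421 CPM in CTRL, 0.385, 1.24 and 0.888 at 1 DPA, 0.614, 1.81 and 1.43 at 3 DPA and 1.58, 1.57 and 1.60 at 5 DPA. Its 1 DPA libraries overlapped CTRL replicate 3, and its change at 1 DPA was -0.90 ± 0.59, adjusted p = 0.223.

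The other genes of efferocytosis, 26 in all, included 12 that were lower and 2 that were higher at 1 DPA than in CTRL, 1 lower at 3 DPA, 3 higher at 5 DPA, and 17 higher and 1 lower at 5 than at 1 DPA. Over all genes these shares were 22.4, 29.2, 2.37, 5.87, 26.3 and 29.8% in that order, and 1 of 26 at 3 DPA is close to its share. The 12 were 17 without CTRL replicate 3 and 9 without CTRL replicate 1, and the 3 at 5 DPA were 0 and 4. Pparg, a lipid-sensing nuclear receptor, measured 5.41, 4.23 and 3.57 CPM in CTRL, 13.6, 12.4 and 11.6 at 1 DPA, 4.04, 4.72 and 4.61 at 3 DPA and 4.35, 4.07 and 6.62 at 5 DPA. Its 1 DPA libraries lay above all others. The change of Pparg was 1.51 ± 0.20, adjusted p = 7.12e-05 at 1 DPA and -1.49 ± 0.20, adjusted p = 0.000127 from 1 to 3 DPA, and both calls held whichever library was left out. Adipocytes also make Pparg, and the adipocyte markers Lep and Adipoq were called higher at 1 DPA too, each at a mean under 1 CPM there. Both passed the filter on low counts through treated libraries alone. The adipocyte markers Plin1 and Cfd went the other way. Plin1 measured 0.364, 0.312 and 0 CPM in CTRL and 0, 0 and 0.0634 at 1 DPA. Cfd measured 0.104, 0.576 and 0 CPM in CTRL and had 0 counts at 1 DPA. The part of adipocytes in the change of Pparg was not tested. Tyro3, the third kinase of the family of Axl and Mertk, was the other gene higher at 1 DPA, by 0.76 ± 0.21, adjusted p = 0.01. This Tyro3 call ended when replicate 3 of 1 DPA was left out (adjusted p = 0.0609). Calr, a surface signal for uptake on dying cells and a chaperone of all cells, changed by -1.03 ± 0.10, adjusted p = 7.69e-06 at 1 DPA, and Cd47, a signal against uptake, by -0.44 ± 0.07, adjusted p = 0.000335. Sirpa, the receptor of Cd47, was the gene lower at 3 DPA, at -0.35 ± 0.09, adjusted p = 0.0196. This Sirpa call ended when replicate 1 or 2 of 3 DPA was left out (adjusted p 0.0546 to 0.056). Scarb1, Itgb5 and Gulp1 were the 3 genes higher than CTRL at 5 DPA, with Scarb1 at 0.48 ± 0.10, adjusted p = 0.0172. This Scarb1 call ended when replicate 2 or 3 of CTRL or replicate 1 of 5 DPA was left out (adjusted p 0.0521 to 0.0812).

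The bridging proteins Pros1 and Mfge8, which like Gas6 link phosphatidylserine to receptors, were not called against CTRL at 1, 3 or 5 DPA. From 1 to 5 DPA Pros1 changed by 1.23 ± 0.22, adjusted p = 0.000814, a call that held whichever library was left out, and Mfge8 by 1.27 ± 0.41, adjusted p = 0.0257. This Mfge8 call ended when any 1 DPA library or replicate 3 of 5 DPA was left out (adjusted p 0.0596 to 0.101).

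Of 6 growth factors and chemokines for macrophages 5 could be tested. Csf1 measured 41.1, 45.6 and 25.1 CPM in CTRL, 29.6, 21.6 and 33.5 at 1 DPA, 35.5, 31.97 and 39.3 at 3 DPA and 32.9, 33.5 and 51.9 at 5 DPA and was not called in any of the 6 comparisons, with a change of 0.48 ± 0.25, adjusted p = 0.129 from 1 to 5 DPA. Il34, the other ligand of Csf1r, measured 7.64, 4.92 and 3.66 CPM in CTRL, 5.84, 5.09 and 5.23 at 1 DPA, 7.49, 6.73 and 6.82 at 3 DPA and 12.9, 8.39 and 9.88 at 5 DPA. Its 5 DPA libraries lay above all others, and its change at 5 DPA against CTRL was 0.95 ± 0.24, adjusted p = 0.0314. This Il34 call ended when replicate 2 or 3 of CTRL or replicate 1 or 3 of 5 DPA was left out (adjusted p 0.0635 to 0.14). Ccl2, the ligand of Ccr2, measured 3.14, 1.39 and 0.399 CPM in CTRL, 0.991, 0.528 and 0.666 at 1 DPA, 7.597, 4.55 and 6.36 at 3 DPA and 5.23, 3.57 and 3.06 at 5 DPA. The 3 DPA libraries lay above all controls and all 1 DPA libraries. The change of Ccl2 at 3 DPA was 1.92 ± 0.55, adjusted p = 0.0444 against CTRL. This Ccl2 call ended when replicate 2 of CTRL, any 1 DPA library, any 3 DPA library or any 5 DPA library was left out (adjusted p 0.0547 to 0.157). Against 1 DPA it was 3.08 ± 0.59, adjusted p = 0.00175. This Ccl2 call held whichever library was left out. Cx3cl1, the ligand of Cx3cr1, changed by -0.41 ± 0.13, adjusted p = 0.0212 at 1 DPA, a call that ended when replicate 3 of CTRL or replicate 1 of 1 DPA was left out (adjusted p 0.0722 to 0.0793), and by 0.13 ± 0.13, adjusted p = 0.596 at 5 DPA against CTRL, not called.

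Among 12 genes of MHC class II and dendritic cells, 3 were lower and 1 higher at 1 DPA than in CTRL, 1 was higher at 3 DPA and 2 at 5 DPA, and 11 were higher at 5 than at 1 DPA. The shares over all genes were 22.4, 29.2, 10.2, 5.87 and 26.3%, so that 3 of 12 at 1 DPA and 1 of 12 at 3 DPA are close to them. The 3 lower were H2-DMb1, Xcr1 and Ccr7 (10 genes without CTRL replicate 3 and 1 without CTRL replicate 1). Ccr7 measured 52.6, 10.3 and 0.0665 CPM in CTRL, 0.0826, 0.0528 and 0.0634 at 1 DPA, 1.93, 1.30 and 17.1 at 3 DPA and 1.71, 9.18 and 62.5 at 5 DPA. The H2-DMb1 call held whichever library was left out. The Ccr7 call ended without replicate 1 of CTRL or any 1 DPA library (adjusted p 0.0888 to 0.109). The Xcr1 call ended without replicate 1 or 2 of CTRL or replicate 1 or 3 of 1 DPA (adjusted p 0.0803 to 0.103). H2-Aa, a chain of MHC class II, measured 183, 90.03 and 48.2 CPM in CTRL, 42.2, 37.4 and 57.1 at 1 DPA, 113, 84.0 and 156 at 3 DPA and 167, 149 and 302 at 5 DPA. CTRL replicate 3 lay within the 1 DPA range and CTRL replicate 1 within the 5 DPA range, and the change of H2-Aa from 1 to 5 DPA was 2.18 ± 0.50, adjusted p = 0.00497. This H2-Aa call held whichever library was left out. Cd209a, a lectin of monocyte-derived dendritic cells, was higher at 5 DPA than in CTRL, by 2.10 ± 0.39, adjusted p = 0.00931. This Cd209a call held whichever library was left out. Zbtb46, a transcription factor of dendritic cells and endothelium, measured 12.9, 10.03 and 7.47 CPM in CTRL, 24.2, 19.9 and 28.1 at 1 DPA, 40.8, 25.1 and 31.5 at 3 DPA and 17.9, 18.5 and 30.2 at 5 DPA. Every treated library lay above every control. The change of Zbtb46 against CTRL was 1.25 ± 0.27, adjusted p = 0.00298 at 1 DPA and 1.68 ± 0.27, adjusted p = 0.00198 at 3 DPA, calls that held whichever library was left out, and 1.13 ± 0.27, adjusted p = 0.0301 at 5 DPA. This Zbtb46 call ended when replicate 2 or 3 of CTRL or replicate 1 or 3 of 5 DPA was left out (adjusted p 0.0544 to 0.0993).

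Of the other cell types, markers of fibroblasts and of endothelial cells were lower in sum in every 1 DPA library than in every 3 and 5 DPA library, as were the macrophage markers. The 10 macrophage markers, all of them members, summed to 382, 298 and 129.8 CPM in CTRL, 100.2, 94.4 and 114 at 1 DPA, 284, 186 and 284 at 3 DPA and 430.4, 440.2 and 629 at 5 DPA. The summed level of 7 markers of fibroblasts, stellate cells and pericytes was 1555, 1218 and 354 CPM in CTRL, 398, 461 and 550.4 at 1 DPA, 1529, 969 and 1591 at 3 DPA and 4135, 2414 and 2486 at 5 DPA. CTRL replicate 3 was the lowest of the 12 libraries for the latter, and the other controls lay with the 3 DPA libraries. At 1 DPA edgeR and limma-voom called 0 of the 7 lower than CTRL and DESeq2 4, 2 had an unadjusted p under 0.05, and edgeR called 7 without CTRL replicate 3. From 1 to 5 DPA edgeR called all 7 higher (26.3% of all genes). At 5 DPA against CTRL DESeq2 and limma-voom each called 4 of them higher. edgeR called 1 (5.87% of all genes), Pdgfrb, by 0.74 ± 0.20, adjusted p = 0.0487. This Pdgfrb call ended when replicate 2 or 3 of CTRL, any 1 DPA library, any 3 DPA library or any 5 DPA library was left out (adjusted p 0.0512 to 0.169). The 6 endothelial markers summed to 808 to 978 CPM in CTRL, 635 to 691 at 1 DPA, 842 to 916 at 3 DPA and 932 to 1066 at 5 DPA. Of these, 4 were lower at 1 DPA than in CTRL (22.4% of all genes) and 6 higher at 5 than at 1 DPA (26.3%). The part of these shifts in the members' changes was not tested. For the 7 acinar markers, from the exocrine tissue around islets, edgeR and limma-voom called 0 in each of the 6 comparisons. DESeq2 called 4 lower at 3 DPA than in CTRL, where 5 had an unadjusted p under 0.05 in edgeR, and 0 elsewhere, where edgeR had 0. Their median change from 1 to 5 DPA was -0.69.

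Markers of neutrophils and mast cells were low. The 9 neutrophil markers summed to at most 7.56 CPM, with Ly6g at 0 counts in CTRL and at 1 DPA. Of these, Csf3r was lower at 1 DPA than in CTRL, by -1.33 ± 0.47, adjusted p = 0.0332. This Csf3r call ended when replicate 1 of CTRL or any 1 DPA library was left out (adjusted p 0.0541 to 0.161). Ngp was called higher at 3 DPA, at a mean of 0.487 CPM against 0.00739 in CTRL. Only its 3 DPA libraries had 10 or more counts. It therefore passed the filter on low counts through the group where it was high, and its call says nothing further. Mast cell markers summed to at most 2.70 CPM. The 5 adipocyte markers summed to 0.0222 to 0.960 CPM in CTRL, 0.771 to 2.16 at 1 DPA, 0.820 to 1.397 at 3 DPA and 0.494 to 1.57 at 5 DPA. Lep and Adipoq of adipocytes were called higher at 1 DPA than in CTRL whichever library was left out, with Lep at 0 counts in CTRL and a mean of 0.757 CPM at 1 DPA, and Adipoq at 0.0780 and 0.655 CPM. No CTRL library had 10 or more counts of either gene. Both passed the filter on low counts through treated libraries alone, so these calls say nothing further. Plin1 and Cfd of the same list were lower in every 1 DPA library than in CTRL replicates 1 and 2. The 9 lymphocyte and NK cell markers summed to 33.2, 26.2 and 11.7 CPM in CTRL, 11.9, 10.98 and 9.93 at 1 DPA, 9.25, 9.82 and 24.6 at 3 DPA and 8.17, 16.5 and 48.8 at 5 DPA, with Cd3e of T cells at 0 counts in every library and 6 of the 9 at 0 counts at 1 DPA. The highest of these sums were in 5 DPA replicate 3 and CTRL replicates 1 and 2, where Timd4, Cd5l and Plac8 were also high, a resemblance seen after the values were known and not tested. Cd4 of this list measured 26.9, 19.2 and 0.200 CPM in CTRL, 0.578, 0.238 and 0.349 at 1 DPA, 1.86, 0.877 and 17.1 at 3 DPA and 5.17, 10.3 and 43.2 at 5 DPA. edgeR called Cd4 lower at 1 DPA than in CTRL and higher at 5 than at 1 DPA. Both Cd4 calls ended when any 1 DPA library was left out, among others. Cd79a was called lower at 5 than at 1 DPA, whichever library was left out. The acinar markers summed to 7535 to 48922 CPM in CTRL, 3918 to 36366 at 1 DPA, 3220.5 to 9312 at 3 DPA and 5802 to 20388 at 5 DPA, with CTRL replicate 3 the lowest control. The markers of the labelled tissue were present, and those of beta cells summed to 181015 to 201410 CPM in CTRL, 104714 to 160956 at 1 DPA, 149183 to 186343 at 3 DPA and 151638 to 205272 at 5 DPA. Of the 7 beta cell markers 5 were lower than CTRL at 1 DPA (Slc2a2, Ucn3, Ins1, Iapp and Pdx1), 1 at 3 DPA (Slc2a2) and 3 at 5 DPA (Ucn3, Pdx1 and Slc2a2), and without CTRL replicate 3 these counts were 4, 1 and 1. Over all genes 22.4, 2.37 and 2.67% were lower in the fit of all libraries.

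**Figure D4:**
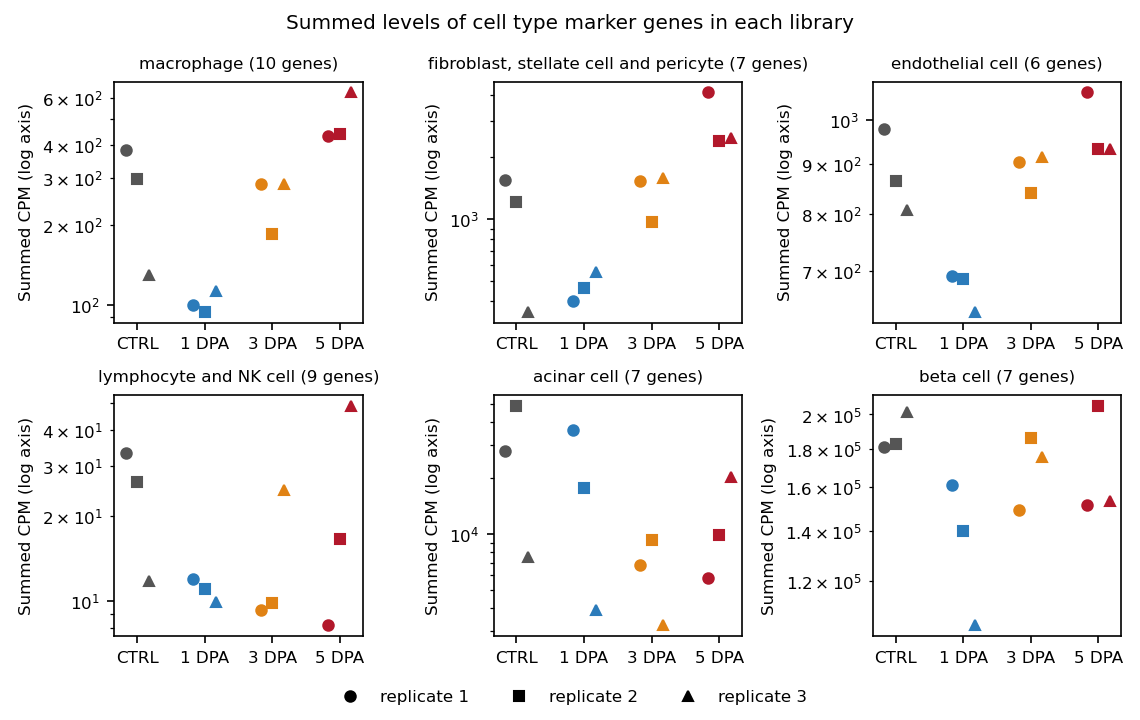
Summed CPM of marker genes of 6 cell types in each library, on log axes, with a symbol for each replicate number. CTRL replicate 3 lies just above the 1 DPA libraries for macrophage markers and below them for fibroblast markers, and the 5 DPA libraries are the highest for both.

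To describe how members differed from each other beyond the overall shift, each was expressed as a percent of the summed CPM of 7 lineage genes (Ptprc, Laptm5, Spi1, Csf1r, Adgre1, Tyrobp and Fcer1g). This measure was chosen after the values were seen, its 7 genes are themselves members, and it carries no test. The sum was 251, 170.2 and 62.6 CPM in CTRL, 50.8 to 59.7 at 1 DPA, 102 to 184 at 3 DPA and 266 to 459 at 5 DPA. Of the other 30 members, 8 were higher and 8 lower as a percent in every 3 DPA library than in every 1 DPA library, and 7 were higher and 13 lower at 5 DPA than at 1 DPA. The sum was higher in every 3 and 5 DPA library than in every 1 DPA library, and the same division put 1.42% of all genes higher and 81.4% lower at 3 DPA, and 0.688% higher and 92.7% lower at 5 DPA. Against CTRL 7 members were higher and 1 lower at 1 DPA (47.9% and 0.312% of all genes), and 4 were higher and 5 lower at 5 DPA (2% and 47.5%). Chil3 is among the members higher at 3 and at 5 DPA than at 1 DPA, and among those higher at 5 DPA than in CTRL. It passed the filter on low counts only through its 3 and 5 DPA libraries, so its place there says nothing further. Lgals3 was 6.37, 4.499 and 3.75% of the sum in CTRL, 6.45, 6.56 and 5.47% at 1 DPA, 20.6, 15.6 and 13.1% at 3 DPA and 19.2, 10.6 and 7.79% at 5 DPA. Gpnmb was 8.89, 2.102 and 0.637% in CTRL, 1.14, 1.91 and 0.903% at 1 DPA, 5.72, 3.43 and 3.98% at 3 DPA and 24.4, 7.61 and 6.52% at 5 DPA. For both genes every 3 and 5 DPA library was above every 1 DPA library.

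C1qa was 41.7, 46.7 and 72.3% of the sum in CTRL, 67.4, 59.4 and 57.7% at 1 DPA, 43.4, 52.4 and 44.3% at 3 DPA and 33.6, 41.1 and 32.3% at 5 DPA, so its 5 DPA shares lay below all controls and all 1 DPA libraries. Cd14 was 6.61, 5.19 and 7.44% in CTRL, 9.05, 8.88 and 8.44% at 1 DPA, 13.3, 9.50 and 6.23% at 3 DPA and 4.76, 4.86 and 2.702% at 5 DPA. It was above all controls at 1 DPA and below them at 5 DPA, and its 3 DPA shares overlapped those of CTRL and of 1 DPA. C1qb overlapped between the groups, at 23.5, 26.1 and 26.3% in CTRL, 23.8, 21.8 and 24.3% at 1 DPA and 23.4, 25.8 and 19.8% at 5 DPA. Lpl was lower as a percent in every 5 DPA library, at 113, 114 and 66.4%, than in every control, at 120.0, 175 and 528%, while its CPM overlapped between these groups.

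**Figure D5:**
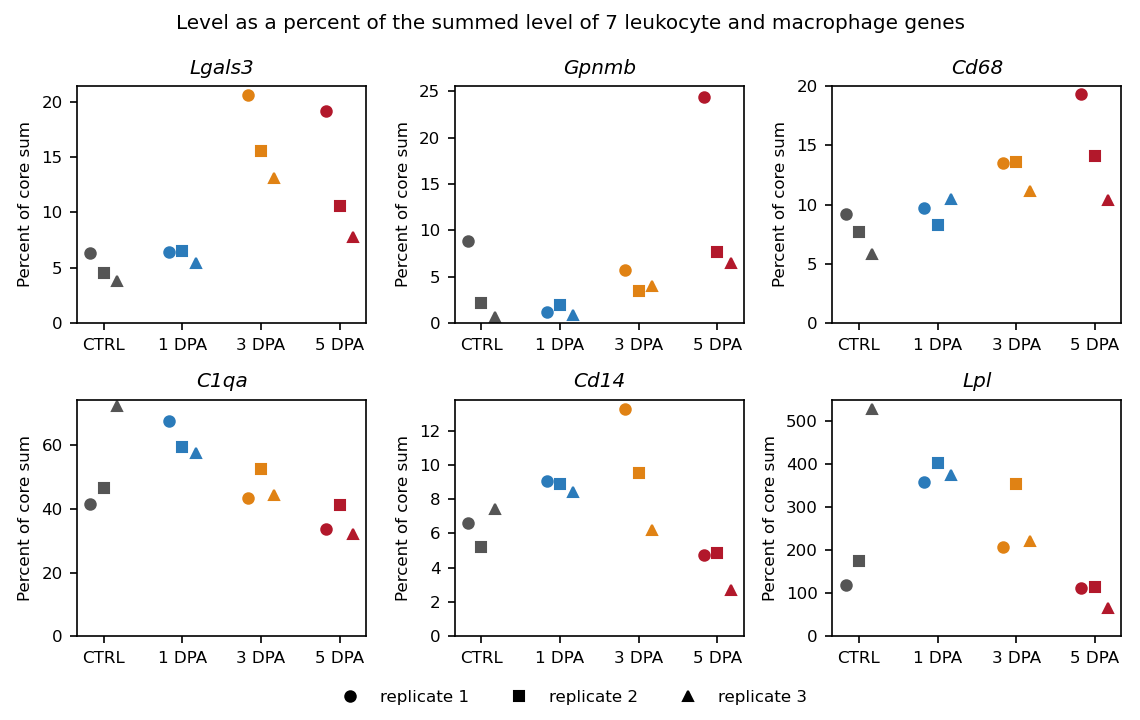
Level of 6 genes as a percent of the summed CPM of 7 leukocyte and macrophage lineage genes in the same library, on linear axes from 0, with a symbol for each replicate number. Lgals3 and Gpnmb are higher in every 3 and 5 DPA library than in any 1 DPA library, and C1qa, Cd14 and Lpl are lower in every 5 DPA library than in any CTRL or 1 DPA library.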

How the data were processed

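RNA-seq of 12 mouse islet libraries was used, 3 in each of 4 groups. The authors deposited a table with raw read counts per gene and, beside them, TPM, a level corrected for length, for each library. The labels' protocols give RNeasy extraction and a QIAseq stranded mRNA library kit, and the submitters' processing notes give the build mm10 and GENCODE M21. The aligner and the strand setting of the counting were not given in the sources used here, so overlapping and antisense genes may share reads. The 24 other columns of per-sample values in the table were not used. Gene positions were taken from GENCODE M21 by identifier (37 of 37 matched) and sequences from RefSeq.

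Counts were tested with edgeR 4.0.16 in R 4.3.3 (TMM scaling, filterByExpr with a minimum count of 10, robust quasi-likelihood fit of all 12 libraries with 1 mean per group, Benjamini-Hochberg over 17294 genes, threshold 0.05). The procedure was tested on simulated data in which each gene had 1 spread in all groups. The wider spread of the members in CTRL was therefore not tried. Standard errors of log2 fold changes come from the F statistic. TPM was used only to order genes by level. The alternatives were DESeq2 1.42.0, limma 3.58.1 (voom), other scalings and filters, fits of only the 2 groups compared, a replicate block and leaving out each library. Members and gene lists were chosen with earlier results of these data known. Members named with a value in every library were set by a list plus every member called with an absolute log2 fold change above 2, and values of the rest were added. Genes outside the members were named as the called genes of smallest p in their list, beside a set of ligands and markers, and Tyro3 after its values were seen. One gene that this rule names is not reported here. Total counts were 29867083 to 50012558 per library, and intervals and floors cover counting error only, not the spread between libraries. The deviations from the group means of every same-numbered pair correlated above 0.1 for 3 and 5 DPA (0.156, 0.187 and 0.326) and no other pair of groups. Libraries of different number were not compared in this way and the labels give no pairing, so whether replicate numbers pair samples stays unknown. No 2 libraries agreed within sampling noise.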

Additional observations from a re-analysis of the deposited data

Results flagged for a closer look

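The difference from CTRL was not the same at the 3 times, by the edgeR test of 1 time against another (adjusted p under 0.05). It differed between 1 and 3 DPA for 29 of the 37 members, 28 of them higher and 1 lower at 3 DPA (20.4% and 24.7% of all genes). Between 3 and 5 DPA it differed for 3, all higher at 5 DPA (0.705% of all genes), and these calls ended when any 3 or 5 DPA library was left out. Between 1 and 5 DPA it differed for 35, all higher at 5 DPA (26.3% of all genes). Chil3, which passed the filter on low counts only through its 3 and 5 DPA libraries, is among the 29 and the 35. For 4 members the difference had opposite signs, lower than CTRL at 1 DPA and higher at 5 DPA, with both comparisons sharing the controls. From 1 to 5 DPA the log2 fold change was 1.83 for Axl, 2.02 for Cx3cr1, 2.97 for Itgax and 2.67 for Ms4a7, and for all 4 the 1 DPA libraries lay below and the 5 DPA libraries above every control. Only Ms4a7 kept both calls against CTRL whichever library was left out. The 5 DPA calls of Axl, Cx3cr1 and Itgax and the 1 DPA call of Itgax each ended in at least 1 such fit. With only the 2 groups in the fit, all 4 lost the 5 DPA call.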

How the results depend on the processing

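With another scaling (RLE factors, or library sizes that leave out the 50 genes with most counts), no filter on low counts or the filter of the member rule, every count of members stayed within 1.5 times its value. No called member changed sign in any alternative. At 1 DPA against CTRL, members called lower were 8 with limma-voom and 14 with only the 2 groups in the fit. At 3 DPA members called higher were 2 with DESeq2, 3 with limma-voom and 1 with the replicate block (Lpl). At 5 DPA members called higher were 13 with DESeq2, 12 with limma-voom and 1 with only the 2 groups in the fit (Trem2). From 3 to 5 DPA they were 8 with DESeq2 and 7 with only the 2 groups in the fit. From 1 to 5 DPA the replicate block called 1 member lower, Abca1. The replicate block also moved the calls at 1 DPA from 24 to 22 and those from 1 to 3 DPA from 28 to 21, and ended those of Axl and Chil3 at 5 DPA. The cause of these differences was not tested.

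Leaving out each library in turn gave 0 to 1 members higher and 11 to 34 lower at 1 DPA, 0 to 4 higher and 0 to 1 lower at 3 DPA, and 2 to 16 higher and 0 lower at 5 DPA, all against CTRL. From 1 to 3 DPA it gave 13 to 35 higher and 1 lower, from 3 to 5 DPA 0 to 13 higher and 0 lower, and from 1 to 5 DPA 32 to 36 higher and 0 to 1 lower, while 26 to 37 differed over the 4 groups. The counts of Chil3, Cd5l and Timd4 limit their fold changes.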
